A study of Mus musculus with 3 samples.

Results

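Of the 55357 genes in the count files, 10 genes of glutathione and antioxidant metabolism were followed through 3 single-cell libraries of a lung carcinoma growing in mouse bone. They were taken by symbol: Slc7a11, Gclm, Gsta4, Gstt1, Gstm1, Nqo1, Txnrd1, Srxn1, Prdx1 and Xdh. LLC1 is a Lewis lung carcinoma cell line of the mouse. In every group 1000000 LLC1 cells in 10 µL were placed in the marrow of the right tibia, and the tumours were taken 14 days later from mice 8 weeks of age. The groups were wild-type mice, for which no Cre is named, DMP1-Cre Mfn2-/- mice and DMP1-Cre Rhot1-/- mice. The libraries are called wild type, Mfn2 and Rhot1 here. Mfn2 encodes a mitofusin of the outer mitochondrial membrane, and Rhot1 encodes MIRO1, which links mitochondria to motor proteins. The Dmp1 promoter drives Cre mainly in osteocytes and late osteoblasts of the mouse. The tumour cells are an injected cell line and do not come from these mice, so they carry no deletion. Each library pooled cells of 3 mice, was digested with collagenase for 1 h and was sorted on a viability dye. There is 1 library per genotype, so no test between genotypes is possible, and all intervals below cover counting error only. The UMIs of 1 cell are not independent, which makes these intervals too narrow.

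Glutathione is the main small thiol of the cell. Cystine enters through the exchanger that contains SLC7A11, glutamate cysteine ligase makes the first step of glutathione synthesis, and glutathione transferases attach glutathione to reactive compounds. Thioredoxin reductase, peroxiredoxins and sulfiredoxin form a parallel system that removes peroxides. Many of these genes are known targets of NRF2, a transcription factor held low by KEAP1, which binds antioxidant response elements together with small MAF proteins.

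The antioxidant response element has the core TGACNNNGC. It was searched on both strands of RefSeq promoter windows (GRCm38.p6, from 250 bases before to 50 bases after each start). Of the 10 genes, 8 had an entry, and Gsta4 and Xdh had none. The core was present in 4 of the 8, Gclm, Txnrd1 (in 1 of its 3 windows), Srxn1 and Prdx1, against 12.4% of all 32851 windows of the same length and 14.0% of the 27025 genes that have one. The stretches around 3 of these matches are shown because these genes share a known regulator and are compared below. Capitals mark the match, read here on its opposite strand as GCNNNGTCA.
Gclm, chr3:122245393-122245461, plus strand, match 134 bases before the start: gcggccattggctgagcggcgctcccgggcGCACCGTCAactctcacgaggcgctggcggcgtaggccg
Txnrd1, chr10:82859084-82859152, plus strand, match 92 bases before the start: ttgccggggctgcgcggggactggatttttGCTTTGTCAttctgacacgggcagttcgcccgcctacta
Prdx1, chr4:116685436-116685504, plus strand, match 133 bases before the start: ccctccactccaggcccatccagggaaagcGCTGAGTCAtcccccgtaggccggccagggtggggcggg
The Srxn1 match lies after the start and is not printed. A match describes letters only, and its absence at 4 genes (Nqo1, Slc7a11, Gstt1 and Gstm1) says nothing about NRF2 there.

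The files held 9393, 10016 and 9534 barcodes with 112088653, 118123705 and 118223251 UMIs (wild type, Mfn2 and Rhot1, the order used throughout). After filters and removal of doublets 9010, 9485 and 9096 cells stayed, with median UMIs of 9768, 10800 and 12101. Clusters were named from markers: 4960, 5837 and 5696 cells were tumour-like, 861, 946 and 848 macrophage-like, 1196, 825 and 769 monocyte-like, and 696, 888 and 466 neutrophil-like. Between 7.24% and 10.8% of the cells stayed unnamed. At most 30 barcodes were shared between any pair of libraries. Mfn2 was at 16.3, 20.3 and 20.7 CPM and Rhot1 at 23.0, 23.7 and 25.1 CPM over all kept cells (CPM, UMIs per 1000000 UMIs). No cluster was named osteocyte or osteoblast and Dmp1 had 9, 6 and 3 UMIs, so the deletions cannot be checked in these cells.

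The 10 genes divided by cell class. Gsta4 and Gstt1 were highest in tumour-like cells in all 3 libraries, Prdx1 in macrophage-like cells and Slc7a11 in neutrophil-like cells. Gstm1 was highest in macrophage-like and monocyte-like cells, and Nqo1 was near 0 in all of them. Levels are compared here within a gene only, since 3′ counts of different genes are not on 1 scale. All values are sums over cells, so more expressing cells and more RNA per cell are not separated except where a share of cells is given.

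**Figure D1:**
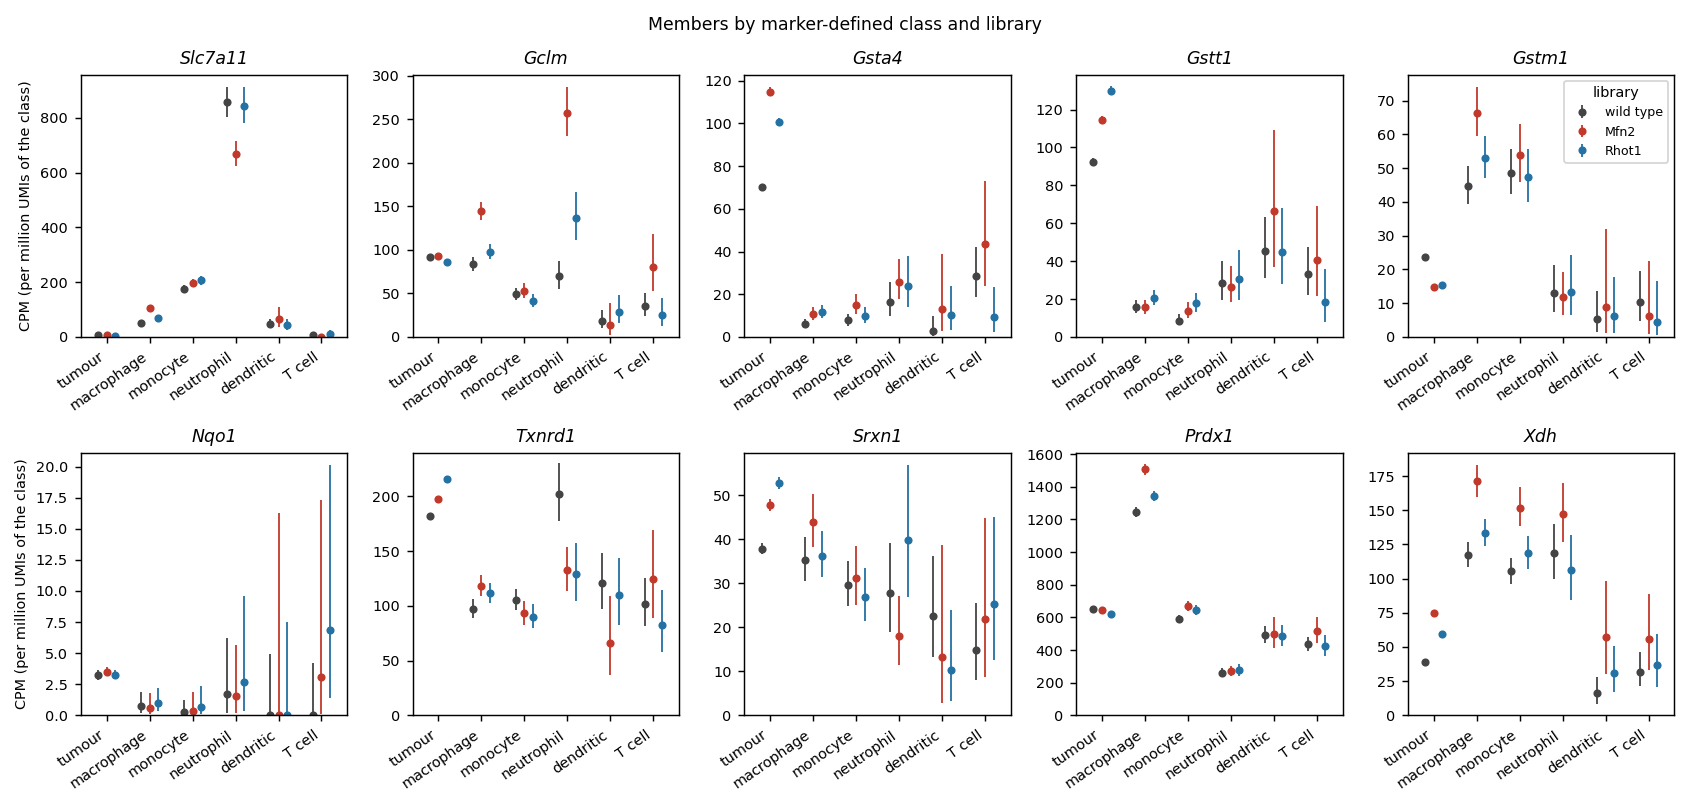
Level of each member (CPM, linear axis from 0, scaled for each gene) in 6 marker-defined classes, with 1 point per library and 95% Poisson intervals of the UMI count. Slc7a11 reaches 857 CPM in neutrophil-like cells of the wild-type library against 6.90 CPM in its tumour-like cells, and Gsta4 lies highest in tumour-like cells.

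Slc7a11, the cystine carrier, was at 857, 669 and 845 CPM in neutrophil-like cells. It was at 176, 197 and 207 CPM in monocyte-like cells, at 50.7, 106 and 69.0 CPM in macrophage-like cells and at only 6.90, 6.66 and 4.53 CPM in tumour-like cells. The order neutrophil, monocyte, macrophage, tumour was the same in each library, and the counting intervals of neighbours did not overlap. NK-like cells had no Slc7a11 UMI, and T-like cells had 6, 0 and 5. A UMI of Slc7a11 was seen in 59.9%, 45.3% and 53.4% of neutrophil-like cells. Thinned to 1500 UMIs the shares were 58.4%, 48.9% and 63.0%, over the 185, 184 and 154 cells deep enough, with 511, 704 and 312 shallower cells left out. Among tumour-like cells thinned in the same way, the shares were 0.791%, 0.711% and 0.671%. The neutrophil-like value of the Mfn2 library was 0.781 times that of the wild-type library (0.712 to 0.856), while in Rhot1 the ratio was 0.986 (0.891 to 1.09).

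Gclm encodes the modifier subunit of glutamate cysteine ligase. It was nearly level in tumour-like cells, at 92.1, 92.6 and 86.3 CPM. In macrophage-like cells it was at 83.5, 145 and 97.5 CPM, and in neutrophil-like cells at 70.1, 258 and 137 CPM. The Mfn2 library was the highest of the 3 in both, 1.73-fold (1.54 to 1.95) and 3.68-fold (2.88 to 4.75) above wild type, and Rhot1 lay between, 1.17-fold (1.03 to 1.33) and 1.95-fold (1.45 to 2.65). The neutrophil-like counts were 81, 329 and 103 UMIs, with at most 15 in 1 cell. A Gclm UMI was seen in 8.05%, 22.1% and 12.9% of all neutrophil-like cells. After thinning the shares were 10.3%, 33.2% and 18.8%, over only the 185, 184 and 154 cells deep enough. Neutrophil-like cells are shallow (medians of 1151, 1054 and 1275 UMIs), and 52.7% of all genes tested there were past the fold used below in Mfn2 over wild type and 52.6% in Rhot1 over wild type. With detected doublets kept, the Mfn2 to wild-type log2 ratio of Gclm in neutrophil-like cells was 1.14 instead of 1.88.

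In tumour-like cells a member counted as past the fold when its log2 ratio was 0.32 or more in size (1.25-fold), at 10 CPM or more in either library. Of the 10 members, 8 reached that level, and Nqo1 and Slc7a11 did not. In Mfn2 over wild type 3 of the 8 were higher (Gsta4, Srxn1 and Xdh) and 1 was lower (Gstm1), where 11.5% of the 8216 genes tested were past the fold, 7.22% higher and 4.32% lower. In Rhot1 over wild type 4 of the 8 were higher (Gsta4, Gstt1, Srxn1 and Xdh) and again Gstm1 was lower, against a background of 13.3%, with 9.51% higher and 3.75% lower. Between the Mfn2 and Rhot1 libraries only Xdh was past the fold, higher in Mfn2, against 3.00% of all genes past it either way and 1.35% higher. The median log2 ratio of the 8 was 0.22 and 0.36 over wild type, against 0.03 and 0.08 for all genes tested. Both comparisons use the same wild-type library.

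**Figure D2:**
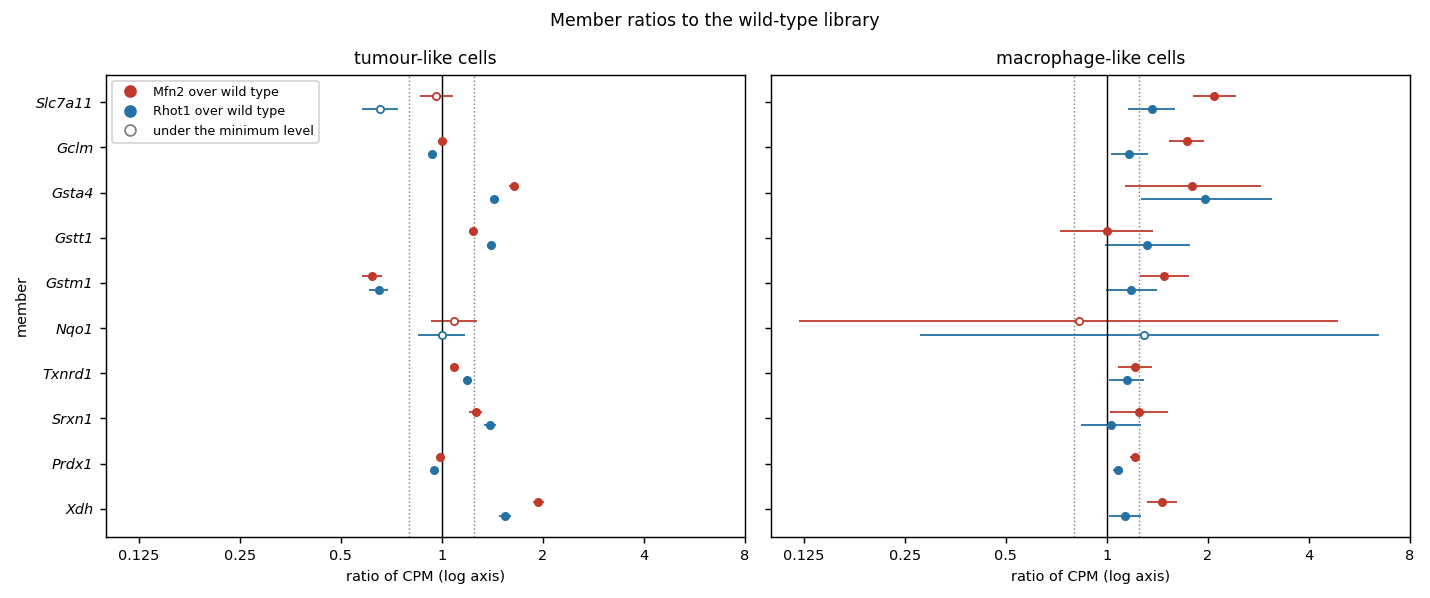
Ratio of each member's CPM to the wild-type library (log axis, 95% exact intervals of the counts) in tumour-like and macrophage-like cells. Dotted lines mark the 1.25-fold limits and open points lie under 10 CPM; Gstm1 is at 0.620 in tumour-like and 1.48 in macrophage-like cells of the Mfn2 library.

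Gsta4 encodes an alpha-class glutathione transferase that acts on the lipid peroxidation product 4-hydroxynonenal. Tumour-like cells held it at 70.1, 115 and 101 CPM, so both deletion libraries were above wild type, 1.64-fold (1.59 to 1.69) and 1.44-fold (1.39 to 1.48). Gstt1, a theta-class transferase, was at 92.4, 115 and 129.9 CPM. Its Mfn2 ratio of 1.24 (1.21 to 1.28) fell just short of the limit and its Rhot1 ratio of 1.41 (1.37 to 1.45) passed it. In immune classes Gsta4 was close to what stray tumour RNA gives: 6 tumour markers (Krt8, Krt18, Hmga2, Pthlh, Igf2bp2 and Igf2bp3) had a median of 9.43%, 11.5% and 12.04% of their tumour level in macrophage-like cells, and Gsta4 was at 8.42%, 9.20% and 11.5%. Its macrophage-like ratios therefore rest on 32, 52 and 61 UMIs at background. In dendritic-like cells Gstt1 was at 48.9%, 57.7% and 34.5% of the tumour level, on 34, 15 and 22 UMIs, where the markers had medians of 12.9%, 6.68% and 18.8% and reached 24.8%, 21.2% and 39.7%. In the Rhot1 library it thus lay within the range of the markers. Macrophage-like Gstt1, at 16.96%, 13.6% and 15.9%, lay within the marker range in each library, and so did monocyte-like Gstt1, at 9.36%, 11.97% and 13.7% against marker medians of 9.10%, 11.1% and 11.1%. The Gsta4 and Gstt1 ratios of these classes, counted below, are therefore at background.

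Gstm1, a mu-class transferase, went the other way in the tumour-like cells. It was at 23.7, 14.7 and 15.4 CPM, lower in both deletion libraries at 0.620 (0.580 to 0.663) and 0.650 (0.608 to 0.694) of wild type. In macrophage-like cells it was at 44.8, 66.5 and 53.0 CPM, which is 1.48-fold (1.25 to 1.76) and 1.18-fold (0.993 to 1.41). In that class the order of wild type and Mfn2 was thus the reverse of the tumour-like order. Of the 50-base stretches in the last 400 bases of its transcripts, 24.1% also occur in Gstm3, Gstm2-ps1 or Gm8834, so part of its reads may be counted elsewhere or dropped. Gstm2 was lower as well, at 16.1, 6.94 and 9.12 CPM, a ratio of 0.430 (0.392 to 0.471) and 0.566.

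Nqo1, the quinone reductase often read as an NRF2 target, was at 3.23, 3.51 and 3.23 CPM in tumour-like cells, and macrophage-like cells held 4, 3 and 5 UMIs of it. Srxn1 encodes sulfiredoxin, which repairs overoxidised peroxiredoxins. Tumour-like cells had it at 37.8, 47.8 and 52.7 CPM, a ratio of 1.26 (1.21 to 1.32) in Mfn2 and 1.39 (1.34 to 1.46) in Rhot1. Txnrd1, the cytosolic thioredoxin reductase, was at 182, 197 and 216 CPM and did not reach the limit, at 1.09 (1.07 to 1.11) and 1.19 (1.16 to 1.21). Prdx1, a peroxiredoxin that reduces hydrogen peroxide, was level at 651, 643 and 619 CPM. The order of Srxn1 and Txnrd1 was wild type, Mfn2, Rhot1, and that of Prdx1 was the opposite. The median mitochondrial share of tumour-like cells had the order of Srxn1, at 1.08%, 1.30% and 1.49%, and its part in these levels was not tested. Median UMIs of tumour-like cells did not have that order, at 16853, 15509 and 16435. Prdx1 shares 25.7% of its 3′ stretches with Gm21399, Gm7204 or Gm15974.

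Xdh encodes xanthine dehydrogenase, an enzyme of purine breakdown, whose oxidase form makes superoxide and hydrogen peroxide. It showed the widest gap of the members in tumour-like cells, at 38.6, 75.1 and 59.8 CPM, or 1.94-fold (1.87 to 2.02) in Mfn2 and 1.55-fold (1.48 to 1.61) in Rhot1. Mfn2 was also above Rhot1, 1.26-fold (1.21 to 1.30). After thinning, 6.39%, 11.6% and 8.78% of tumour-like cells had an Xdh UMI. Macrophage-like cells held it at 117, 171 and 133 CPM and monocyte-like cells at 105, 152 and 119 CPM. The Mfn2 library was highest in these 3 classes.

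Within the tumour-like class, 7 clusters were compared between libraries. Their shares of the class differed: a cluster led by Prxl2a with Gsta4 among its leading genes made up 6.31%, 27.2% and 18.7%, and one led by Sema3a, Igfbp4 and Fgfr1 21.7%, 7.69% and 12.01%. Gsta4 was a leading gene used to describe the first cluster, so its level there is a description. Xdh was above wild type in 7 of 7 clusters in both deletion libraries (ratios 1.25 to 2.67 and 1.03 to 2.10), with the interval above 1 in 6 of 7 in each. Srxn1 was above in 7 of 7 as well (1.08 to 1.59 and 1.22 to 1.55), with the interval above 1 in 3 of 7 in Mfn2 and 6 of 7 in Rhot1. Gsta4 was above in 6 of 7. In the Prxl2a cluster it was at 134, 119 and 102 CPM, a ratio of 0.885 in Mfn2 and 0.761 in Rhot1. Gstt1 was above wild type in 5 of 7 clusters in Mfn2 and 6 of 7 in Rhot1 (ratios 0.797 to 1.78 and 0.986 to 1.91). Its Mfn2 ratio was 0.873 (0.811 to 0.942) in the Prxl2a cluster and 0.797 (0.745 to 0.852) in that led by Adm and Ndrg1.

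Gstm1 was highest in the Sema3a and Igfbp4 cluster in every library, at 55.9, 29.5 and 37.5 CPM, and at 10.9 to 25.4 CPM in the others. It was below wild type in 5 of 7 clusters in Mfn2 and 6 of 7 in Rhot1, with the interval below 1 in 4 of 7 in each. In the cluster led by Adm and Ndrg1 the Mfn2 ratio of Gstm1 was above 1, at 1.20 (1.01 to 1.42). The class-wide difference moved with the cluster mix: with clusters weighted alike the log2 ratios were -0.43 and -0.33, against -0.69 and -0.62 for the class as a whole. At resolution 2, without the clusters led by Mmp3 and Lum or by Sema3a and Igfbp4, they were -0.28 and -0.31, both short of the limit, and Srxn1 in Mfn2 over wild type was at 0.31. The summed level of 8 fibroblast markers in the tumour-like class was 1683, 782 and 746 CPM. Whether stromal cells or a tumour state accounts for these levels was not tested.

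**Figure D3:**
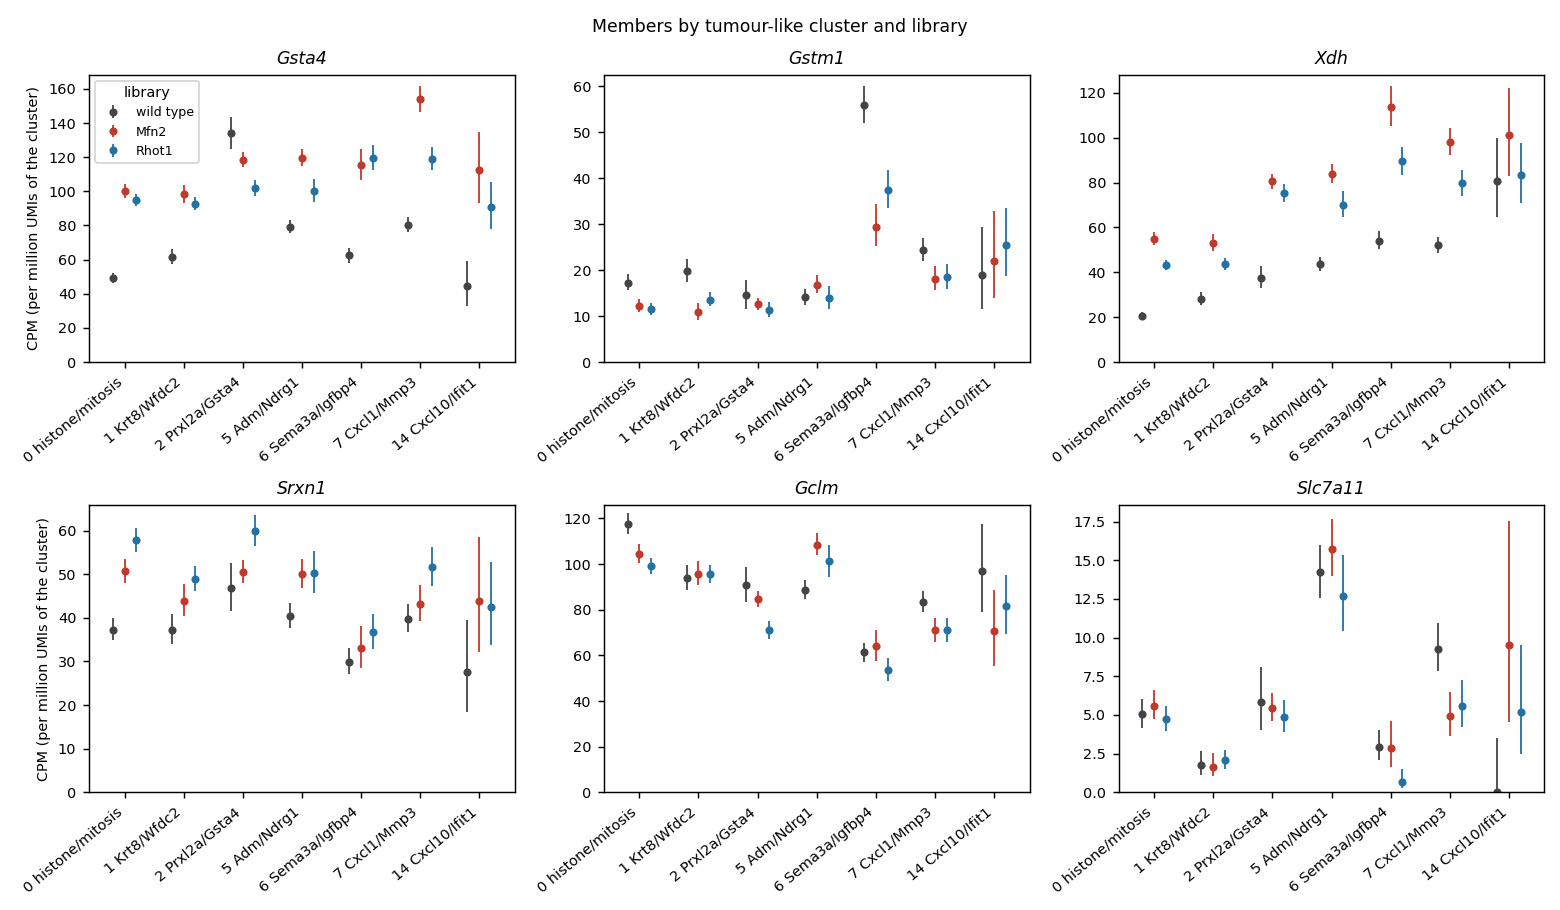
Level of 6 members (CPM, linear axes from 0, 95% Poisson intervals) in 7 tumour-like clusters, labelled by number and leading genes, with 1 point per library. Xdh is above wild type in all 7 clusters in both deletion libraries, Gstm1 peaks in the Sema3a and Igfbp4 cluster, and Slc7a11 is highest in the Adm and Ndrg1 cluster of each library.

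Slc7a11, though low in tumour-like cells, was highest in the cluster led by the hypoxia genes Adm and Ndrg1, at 14.2, 15.7 and 12.7 CPM, and under 10 CPM in the other 6. Gclm in that cluster was at 88.8, 109 and 101 CPM, the one cluster where both deletion libraries exceeded wild type beyond counting error. Txnrd1 was lowest in the Sema3a and Igfbp4 cluster, at 112, 128 and 139 CPM. Over the 21 combinations of cluster and library, which share libraries and depth, log2 levels of Gclm and Txnrd1 went together (Pearson r 0.79) and those of Gstm1 and Txnrd1 went apart (r -0.79). Of 3925 genes at 50 CPM or more, those most like Xdh were Grn, Anxa4 and Prune2 (r 0.95, 0.93 and 0.90), among those most like Srxn1 were Asap2 and Odc1 (r 0.94 and 0.91), and those most like Gstm1 were Serinc3, Itm2b and Fgfr1 (r 0.93 for each). Gsta4 was most like Rundc3a (r 0.91), Micall1 and Plbd2, and Slc7a11 most like Lpin2, Calu and Ptges (r 0.89, 0.88 and 0.87).

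The wider pathway lists were counted in tumour-like cells in the same way. Of all genes tested, 7.22% were higher and 4.32% lower in Mfn2 over wild type, and 9.51% and 3.75% in Rhot1. Of 8 regulators of NRF2, 3 were higher in Mfn2 over wild type and 2 in Rhot1, with none lower. This list mixes NRF2 and its partners with genes that hold it low, such as Keap1, so the count gives no direction for the pathway. Nfe2l2, which encodes NRF2, was at 140.4, 178 and 168 CPM, and its partner Mafg at 102, 129.9 and 132 CPM. Among 5 measured genes of glutathione synthesis and recycling, none passed the fold in either comparison. Of 9 other transferases 1 was higher and 1 lower in Mfn2, and 2 higher and 3 lower in Rhot1. Mgst3 was higher in both, at 90.8, 124 and 119 CPM, and Gstm2, given above, was lower in both. Gstp1 was past the fold in Rhot1 but not in Mfn2, at 92.9, 82.5 and 61.5 CPM. None of the 5 other peroxiredoxins and none of the 3 dismutases and catalase passed in either. Of the peroxidases Gpx8 alone passed, lower in both (72.2, 55.7 and 55.2 CPM). Of 6 genes of NADPH supply G6pdx was higher in both (41.8, 52.6 and 52.8 CPM) and Me1 lower in both (43.2, 28.0 and 31.6 CPM), with 1 more of the 6 lower in Mfn2. From the haem and iron list, whose count is not given for this class, Hmox1, the haem oxygenase, was higher in Mfn2 only. It was at 49.9, 79.5 and 41.4 CPM, the same order of libraries as in macrophage-like cells (below). The 9 macrophage markers summed to 128, 120 and 148 CPM in tumour-like cells, and the part of macrophage RNA in this Hmox1 level was not tested.

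In macrophage-like cells 9 of the 10 members reached 10 CPM. In Mfn2 over wild type 5 of the 9 were higher (Gsta4, Gstm1, Gclm, Slc7a11 and Xdh) and none lower, where 20.7% of the 8016 genes were past the fold, 10.4% higher and 10.3% lower. In Rhot1 over wild type 3 of the 9 were higher (Gsta4, Gstt1 and Slc7a11), and none lower, against 17.7% of all genes, 12.1% higher and 5.54% lower. In Mfn2 over Rhot1 4 of the 9 were higher (Gstm1, Gclm, Slc7a11 and Xdh) and Gstt1 was lower, against 18.9% of all genes, 6.35% higher and 12.5% lower. The median log2 ratio of the 9 over wild type was 0.55 and 0.22, against -0.00 and 0.06 for all genes. These counts and medians include Gsta4 and Gstt1, which were at background in this class. The Gstt1 intervals include 1 in Rhot1 over wild type (0.986 to 1.78) and in Mfn2 over Rhot1 (0.557 to 1.02). Slc7a11 was 2.09-fold (1.81 to 2.43) and 1.36-fold (1.16 to 1.60) above wild type, Gclm as given above, and Xdh 1.46-fold (1.32 to 1.62) and 1.14-fold (1.02 to 1.27). With cells classed by their highest marker score, the log2 ratios in Mfn2 were 0.26 for Slc7a11, 0.32 for Gstm1 (just short of the limit) and 0.38 for Gclm, against 1.07, 0.57 and 0.79. With a stricter cell filter that of Slc7a11 was 0.42. The Gsta4 ratio in Mfn2 was gone after thinning (log2 -0.01), and the Slc7a11 ratio in Rhot1 turned below 1 under 3 other ways of choosing the cells (log2 -0.11 to -0.25).

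Levels also differed between kinds of macrophage-like cells. At resolution 2 this class had 4 clusters, but it was another and larger set of cells. It held 1333, 1195 and 1012 cells, against 861, 946 and 848 in the class described above. The monocyte-like class was smaller there, at 714, 569 and 594 cells against 1196, 825 and 769. The cluster levels below are therefore not parts of the class levels above. Slc7a11 was at 187, 347 and 565 CPM in the cluster led by Arg1 and Mmp12, at 102, 171 and 147 CPM in that led by Ppbp and Pf4, at 38.1, 32.8 and 40.2 CPM in that led by complement C1q genes, and at 5.39, 7.66 and 3.93 CPM in that led by Ccl8 and Ccl12. The Arg1 cluster held 297, 167 and 71 cells and the Ppbp cluster 477, 644 and 446, so the mix of clusters differed between libraries. Xdh was highest in the Mfn2 library in each of the 4 clusters. Gclm was highest in the Ppbp cluster, at 127, 194 and 156 CPM.

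**Figure D4:**
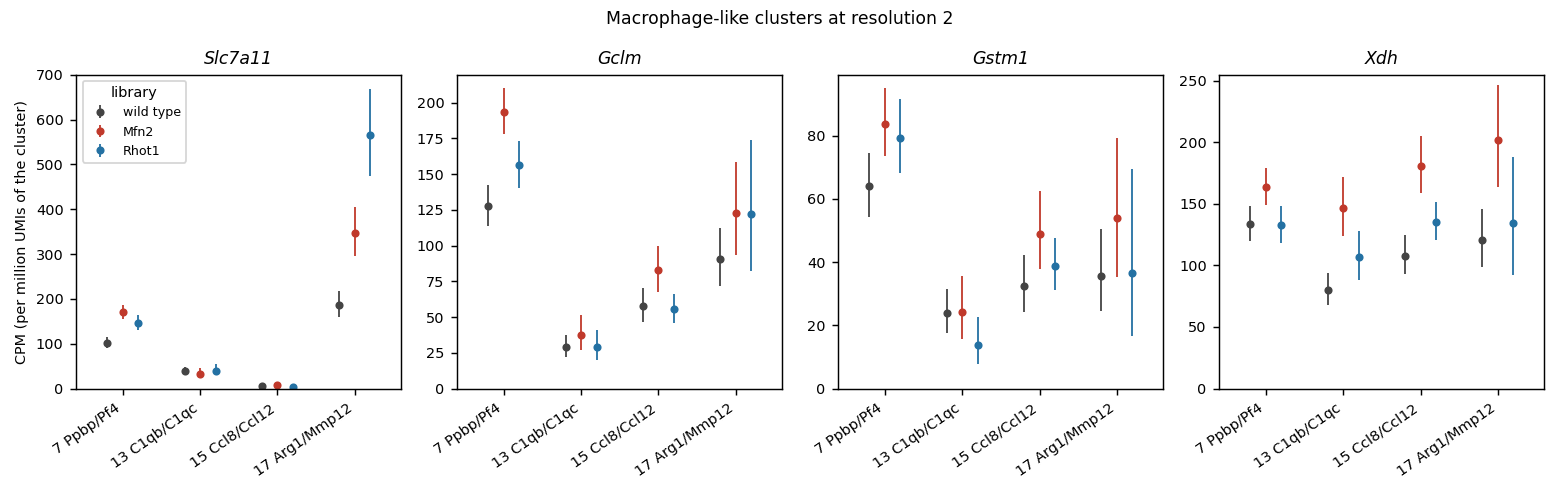
Level of Slc7a11, Gclm, Gstm1 and Xdh (CPM, linear axes from 0, 95% Poisson intervals) in the 4 macrophage-like clusters found at resolution 2, labelled by number and leading genes, with 1 point per library. Slc7a11 spans from 3.93 to 565 CPM across them, a wider range than between libraries within a cluster.

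Markers of other cells also moved with the macrophage-like class. Its 8 neutrophil markers summed to 266, 757 and 411 CPM and its 7 erythroid markers to 9.22, 446 and 332 CPM. Its 7 monocyte markers summed to 451, 688 and 546 CPM and its 4 megakaryocyte markers to 432, 923 and 784 CPM. Among lists lower in both deletion libraries were fibroblast markers (163, 94.1 and 86.2 CPM) and osteoclast markers (117, 73.0 and 105 CPM). In Mfn2, 13 of 14 S-phase and 14 of 16 G2/M genes were lower than in wild type. Of all genes tested there, 10.3% were past the fold and lower. Of the macrophage-like cells, 435, 386 and 448 had no UMI of S100a8 or S100a9. In these Slc7a11 was at 49.0, 97.5 and 58.0 CPM, Gclm at 79.5, 118 and 80.7 CPM and Xdh at 131, 182 and 136 CPM. Each of the 3 genes was highest in Mfn2. Neutrophil markers stayed in these cells at 38.0, 49.0 and 31.7 CPM, also highest in Mfn2. In Rhot1 over wild type the log2 ratios were then 0.24 for Slc7a11, short of the limit, 0.02 for Gclm and 0.06 for Xdh, against 0.44, 0.22 and 0.18 in the whole class. The part of neutrophil, erythroid, monocyte and megakaryocyte RNA and of the cell cycle was not tested. In the wider lists, 3 of 5 haem and iron genes were higher in Mfn2 over wild type and none in Rhot1. Hmox1 was at 1647, 3163 and 1603 CPM. Of all genes tested in this class, 10.4% were higher and 10.3% lower in Mfn2, and 12.1% and 5.54% in Rhot1. Of 5 genes of glutathione synthesis and recycling, 2 were higher and 1 lower in Mfn2, and 1 was higher in Rhot1. Gclc, the catalytic partner of Gclm, was at 19.4, 32.9 and 25.1 CPM, a Mfn2 ratio of 1.70 (1.32 to 2.20). Gsr, glutathione reductase, was at 54.2, 86.8 and 61.9 CPM, a Mfn2 ratio of 1.60 (1.38 to 1.86). The lower gene was Ggct, at 11.6, 8.94 and 10.6 CPM, with an interval of its Mfn2 ratio from 0.512 to 1.15. Of the 5 other peroxiredoxins 1 was higher and 1 lower in Mfn2 and none passed in Rhot1: Prdx6 was at 222, 439 and 235 CPM (Mfn2 ratio 1.97, 1.84 to 2.12) and Prdx3 at 35.9, 28.5 and 31.3 CPM (0.792, 0.633 to 0.989).

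In monocyte-like cells 3 of 9 members were higher in Mfn2 over wild type (Gsta4, Gstt1 and Xdh) and none lower, against 24.0% of all genes past the fold, 14.9% higher and 9.10% lower. In Rhot1 over wild type 1 of 8 was higher (Gstt1, on 55 and 38 UMIs) and none lower, against 22.2%, with 14.0% higher and 8.17% lower. In Mfn2 over Rhot1 3 of 9 were higher (Gsta4, Gclm and Xdh) and Gstt1 was lower, against 21.9%, with 10.4% higher and 11.6% lower. Xdh was 1.44-fold (1.26 to 1.65) above wild type in Mfn2, and Gclm was at 48.9, 52.8 and 41.2 CPM. In neutrophil-like cells 2 of 9 members were higher in Mfn2 over wild type (Gsta4 and Gclm) and 3 lower (Txnrd1, Srxn1 and Slc7a11), against 52.7% of all genes, 23.6% higher and 29.1% lower. The interval of the Srxn1 ratio, 0.364 to 1.15, includes 1, and its log2 ratio turned to 0.21 with doublets kept and to 1.23 after thinning. In Rhot1 over wild type 3 of 9 were higher (Gsta4, Gclm and Srxn1) and 1 lower (Txnrd1), against 52.6%, with 22.0% higher and 30.6% lower. The Rhot1 intervals of Gsta4 (0.720 to 2.93, on 18 and 19 UMIs) and Srxn1 (0.845 to 2.45, on 30 and 32 UMIs) include 1. So does the Gsta4 interval in Mfn2 over wild type, 0.869 to 2.93 on 33 and 19 UMIs. In Mfn2 over Rhot1 2 of 9 were higher (Gclm and Xdh) and 2 lower (Srxn1 and Slc7a11), against 47.3%, with 25.5% higher and 21.8% lower. The largest of these shares, 5 of 9 in Mfn2 over wild type, is close to that of all genes. Txnrd1 was at 202, 132 and 129 CPM, lower in both deletion libraries at 0.654 (0.534 to 0.801) and 0.637 (0.497 to 0.810) of wild type. A single cell held 26 of the 169 UMIs in Mfn2, and with doublets kept the Mfn2 log2 ratio was -0.16, short of the limit. In neutrophil-like cells the 6 tumour markers were at 18.9% to 59.2%, 18.8% to 79.7% and 8.61% to 46.3% of their tumour level. Txnrd1 was at 111%, 67.0% and 59.8% and Srxn1 at 73.2%, 37.7% and 75.6%, so both lay within the marker range in Mfn2 only. Gsta4, at 23.5%, 22.5% and 23.8%, lay within it in each library. T-, NK-, dendritic- and B-like cells were few, between 15 and 296 in a library, and most members had under 100 UMIs there.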

How the data were processed

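Cells of 3 libraries, 1 per genotype and 3 pooled mice each, were analysed from the deposited UMI count matrices (Cell Ranger 7.0.0 per the file headers, build mm10 per the submitters' processing notes). Which annotation was used, and whether introns were counted, is not given in the sources used here. Kept cells had at least 300 genes and no more than 15% mitochondrial UMIs, and Scrublet doublets (288, 383 and 271) were removed. Counts were scaled to 10000 UMIs and logged, and 2000 variable genes, none from the gene lists used here, gave 30 principal components, 15 neighbours and a Leiden clustering at resolution 1 (scanpy 1.11.5, leidenalg 0.10.2). Clusters were named from fixed markers. The naming thresholds and the neighbour graph were set after clusters had been seen: a first graph dropped shared-neighbour edges under 1/15, which left a cluster of 2735 cells led by Mmp3 and Sema3a unnamed, and it was replaced by a graph that keeps all edges. Results from the graph tried first are given as an alternative. UMIs were summed per class and library and divided by all UMIs of that class (CPM). Levels carry exact Poisson and ratios exact conditional 95% intervals. Shares of cells used thinning to 1500 UMIs. All 10 members are named, and of each list the 2 highest and 2 lowest ratios could be named; 1 gene that the rule names is not reported here. Gene names in the files were matched to GENCODE M21 (94.1% of the IDs). The ratio script was tested on simulated counts. The members and lists were chosen with earlier results of these data known.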

Additional observations from a re-analysis of the deposited data

Results flagged for a closer look

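In 4 cases a difference went opposite ways in 2 cell classes of the same pair of libraries. The difference between classes was not tested, since there is 1 library per genotype. Gstm1 in Mfn2 over wild type had a ratio of 0.620 in tumour-like and 1.48 in macrophage-like cells. Slc7a11 in Mfn2 over wild type had a ratio of 0.781 in neutrophil-like and 2.09 in macrophage-like cells, and in Mfn2 over Rhot1 0.792 and 1.54. Srxn1 in Mfn2 over wild type had a ratio of 0.651 in neutrophil-like cells, on 23 and 32 UMIs, and 1.26 in tumour-like cells. The neutrophil-like ratio has an interval of 0.364 to 1.15 and turned above 1 with doublets kept and after thinning (log2 0.21 and 1.23), so its direction is not settled. Neutrophil-like Srxn1 in Mfn2, at 37.7% of its tumour level, also lay within the range of the 6 tumour markers there, 18.8% to 79.7%.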

How the results depend on the processing

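With 1 library per genotype nothing checks the spread between mice, and no library can be left out. No paired analysis was possible because each genotype has 1 library. Of 1143 member ratios recomputed under alternatives, 946 moved by less than their interval, 191 by more, and 6 reversed. In tumour-like cells Gsta4, Srxn1 and Xdh were above wild type and Gstm1 below it in both deletion libraries under all 15 alternatives, of which 2 were chosen after seeing the data. One of these was the neighbour graph tried first, with edges under 1/15 dropped: it gave 4 and 5 members past the fold over wild type, as reported, with Gstm1 at log2 ratios of -0.36 and -0.39. The other, resolution 2 without the clusters led by Mmp3 and Lum or by Igfbp4 and Sema3a, gave 2 members in Mfn2 over wild type instead of 4. Mfn2 over Rhot1 had 0 members with clusters weighted alike or with a pseudocount of 5 CPM, and 2 with no minimum level, instead of 1. In macrophage-like cells, Mfn2 over wild type had 3 members with cells classed by their highest marker score instead of 5, and Rhot1 over wild type had 1 with doublets kept instead of 3. The log2 ratio of Slc7a11 in macrophage-like cells, Rhot1 over wild type, was -0.15 with the stricter cell filter, -0.11 with list genes among the variable genes and -0.25 by marker score; that of Gsta4 in Mfn2 was -0.0055 after thinning. The log2 ratio of Srxn1 in neutrophil-like cells, Mfn2 over wild type, was 0.21 with doublets kept and 1.23 after thinning, against -0.62. The cause was not tested. The stricter filter and the list genes gave no monocyte-like class, and weighting clusters alike could not be applied to classes of 1 cluster.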
